A study of Homo sapiens with 12 samples.

Results

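The genes described here encode the nuclear pore complex and the carriers that move proteins and RNA through it. They were taken from the deposited count table by name: every protein-coding gene called NUP followed by a number, KPNA, KPNB1, XPO, IPO, TNPO, RANBP, RANGAP1 or RAN. The rule found 54 genes among 58735 in the table. It leaves out pore and transport genes with other names, and 29 of those are counted separately below.

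The nuclear pore complex is a ring-shaped channel in the nuclear envelope, built from many copies of proteins called nucleoporins. Importins bind cargo in the cytoplasm and exportins bind cargo in the nucleus. The small GTPase Ran, loaded with GTP in the nucleus and with GDP in the cytoplasm, makes importins release their cargo and exportins take theirs up. Dividing cells take pores apart and rebuild them at each mitosis, and several carriers also have roles in spindle assembly.

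The libraries came from Beas-2b, an immortalised human bronchial epithelial cell line, and poly(A) RNA was sequenced. Wild type cells and ANT1 knockout (KO) cells, made by CRISPR against SLC25A4, were studied with bleomycin and with control medium alone. Bleomycin breaks DNA and was given to induce senescence, per the labels at 10 mg/ml over 2 days. There were 3 libraries per group in 4 groups, called biological replicates in the design text. The labels speak of knockout clones without saying how many, so genotype and clone cannot be told apart.

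SLC25A4 lay between 4.09 and 6.97 CPM (read counts scaled to library size, as described under processing) in the 6 knockout libraries and between 16.1 and 27.5 CPM in the 6 wild type libraries. Library totals ran from 15.8 to 21.9 megacounts. Of epithelial markers, the keratins KRT7, KRT8 and KRT18 were at 117 CPM or more in every library and KRT19 at 15.5 to 76.3 CPM, while EPCAM and CDH1 stayed at or below 2.96 CPM and KRT5 at or below 0.481 CPM. Of 7 fibroblast and mesenchymal markers, COL1A1 was at 463 to 3474 CPM, PDGFRB at 7.48 to 51.4 CPM and COL1A2 at 2.85 to 15.7 CPM, while COL3A1, PDGFRA and DCN stayed at or below 0.321 CPM and LUM had 0 counts. Of leukocyte markers, CD14 reached 40.8 CPM and ITGAM 6.08 CPM, and PTPRC, CD3E and CD68 stayed at or below 0.427 CPM. Of endothelial markers, CDH5, VWF and KDR reached 3.20, 1.92 and 1.22 CPM and PECAM1 0.319 CPM. Knockout control replicate 2 was unlike the rest. Mitochondrial transcripts made up 0.364% of its counts against 3.86% to 5.13% in the other 11 libraries. Each call of a member that changed when it was left out is given below. Log2 fold changes without it are given for some members only, so other values may also depend on it.

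Of the 54 genes, 51 had enough counts to be tested. The highest level per length in wild type control cells belonged to KPNA2, importin alpha 1, which links cargo carrying a classical nuclear localisation signal to importin beta, at 175 ± 22.2 FPKM (fragments scaled for gene length and library size; SD, n = 3). It was followed by KPNB1, importin beta 1, the carrier of that complex, at 103 ± 6.11 FPKM. RANGAP1, which makes Ran hydrolyse its GTP on the cytoplasmic side, was at 85.2 ± 6.44 FPKM and RAN itself at 84.8 ± 9.44 FPKM, levels that differed by less than their spread. Most nucleoporins lay well below these: the highest, NUP62 of the central channel, was at 27.8 ± 0.257 FPKM, and the lowest tested, the membrane nucleoporin NUP210, at 4.02 ± 0.545 FPKM. NUP188 (27.3 ± 1.57 FPKM) and NUP35 (4.24 ± 0.324 FPKM) differed from NUP62 and NUP210 by less than the spread. RANBP17, a relative of exportin 7, and KPNA5, importin alpha 6, were the lowest tested members, at 1.09 ± 0.0299 and 0.884 ± 0.0611 FPKM.

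IPO4, KPNA7 and NUP210L did not pass the filter on low counts. NUP210L, a paralog of NUP210 known from testis, had 5, 8, 7 and 11 counts over the 3 libraries of wild type control, wild type bleomycin, knockout control and knockout bleomycin. KPNA7, an importin alpha known from oocytes, had 2, 7, 1 and 14 counts in the same order. IPO4, an importin of histones, had 11, 9, 12 and 9. In GENCODE release 29, 69.3% of the exonic bases of IPO4 (ENSG00000196497, chromosome 14, 24180219 to 24188964, minus strand) also belong to exons of AL136295.4 on the same strand, which itself had 4, 1, 1 and 2 counts. No source used here says how reads shared by overlapping genes were counted, and the count of IPO4 is uncertain.

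The first comparison, bleomycin against control medium among wild type libraries, addresses how the transport machinery responds to a senescence-inducing drug. Of 51 tested members 25 fell and 6 rose. Over all 16702 genes tested 43.5% passed, 19.6% lower and 23.9% higher, so 49.0% of members against 19.6% of all genes were lower. The member median was a log2 fold change of -0.34, or 1.27-fold lower, against 0.02 over all genes. Most changes were small: 8 of the 25 that fell did so by at least 1.5-fold and 2 by at least 2-fold, and no member that rose reached 1.5-fold. Over all genes 11.4% fell by at least 1.5-fold and 5.28% by at least 2-fold, and 18.5% rose by at least 1.5-fold, so the share of members past 1.5-fold (15.7%) was near that of all genes that fell. In 35 members every bleomycin library lay below every control library and in 6 every one lay above, where 29.2% and 32.1% of all genes did so (61.3% in either direction).

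KPNA2 (ENSG00000182481, chromosome 17, 68035519 to 68046842, plus strand) had 629.6, 519.6 and 505 CPM in the wild type control libraries and 202, 201 and 234 CPM after bleomycin. The groups are far apart. KPNA2 fell 2.60-fold (log2 fold change -1.38, SE 0.10, adjusted p = 2.11e-07, edgeR). NUP210 (ENSG00000132182, chromosome 3, 13316235 to 13420309, minus strand), a glycoprotein that spans the membrane around the pore, had 27.7, 35.3 and 35.9 CPM in control and 13.4, 11.5 and 11.004 CPM after bleomycin, again without overlap. It fell 2.75-fold (log2 fold change -1.46, SE 0.17, adjusted p = 1.11e-05), the largest change of any member in wild type cells.

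XPO1 (ENSG00000082898, chromosome 2, 61477849 to 61538626, minus strand), also called CRM1, exports proteins that carry a leucine-rich signal. It had 459, 416 and 401 CPM in control and 257, 251 and 249.6 CPM after bleomycin, with the treated libraries close together and all below the controls. XPO1 fell 1.68-fold (log2 fold change -0.75, SE 0.08, adjusted p = 5.37e-06). NUP88 (ENSG00000108559, chromosome 17, 5360963 to 5420160, minus strand), a partner of NUP214 at the cytoplasmic face where XPO1 docks, had 74.0, 61.6 and 63.1 CPM in control and 39.5, 42.6 and 42.2 CPM after bleomycin and fell 1.60-fold (log2 fold change -0.68, SE 0.10, adjusted p = 9.72e-05). Exons of RPAIN and RABEP1 on the opposite strand cover 18.7% of its exonic bases together, and whether counting used strand is not given. NUP188 (ENSG00000095319, chromosome 9, 128947699 to 129007096, plus strand), a scaffold of the inner ring, went from 229.8, 207 and 224 CPM to 142, 143 and 129 CPM and fell 1.60-fold (log2 fold change -0.68, SE 0.12, adjusted p = 0.000594).

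KPNB1 (ENSG00000108424, chromosome 17, 47649476 to 47685505, plus strand) had 843, 795 and 752 CPM in control and 602, 575 and 590.3 CPM after bleomycin. Its groups did not overlap, and it fell 1.35-fold (log2 fold change -0.44, SE 0.08, adjusted p = 0.000592), a smaller fold than that of its adaptor KPNA2. RAN (ENSG00000132341, chromosome 12, 130871879 to 130877678, plus strand) had 459, 401 and 371 CPM in control and 293, 308 and 352 CPM after bleomycin. The highest treated and the lowest control library of RAN were close, and it fell 1.29-fold (log2 fold change -0.37, SE 0.13, adjusted p = 0.0372). The RAN call did not hold when wild type control replicate 1 was left out (adjusted p = 0.128) or 2 (0.0661), nor without wild type bleomycin replicate 1 (0.130) or 2 (0.102), or knockout bleomycin replicate 1 (0.0504). Processed pseudogenes of KPNA2, RAN and other members share sequence with them, so their counts are uncertain to that extent.

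Among 20 mitosis genes listed for comparison, all 20 fell in wild type cells (median -1.55) and 19 in knockout cells (median -1.46). Over all genes 19.6% and 20.7% were lower, with medians of 0.02 and 0.00. The summed level of the mitosis genes was 4749 to 5322 CPM in wild type control and 1633 to 1710 CPM in wild type bleomycin. In knockout cells it was 4435 to 5160 against 1700 to 1802 CPM. The part of this shift in the changes of the transport genes was not tested. In bulk RNA, fewer cells with a transcript and less of it per cell cannot be told apart.

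The members that rose in wild type cells belonged to different branches of transport. RANBP17 (ENSG00000204764, chromosome 5, 170861870 to 171300015, plus strand) had 12.1, 11.7 and 12.2 CPM in control and 17.3, 19.8 and 14.2 CPM after bleomycin and rose 1.42-fold (log2 fold change 0.51, SE 0.13, adjusted p = 0.00704). XPOT (ENSG00000184575, chromosome 12, 64404350 to 64451127, plus strand), the exportin of tRNA, had 188, 173 and 159 CPM in control and 225, 220.2 and 219 CPM after bleomycin. Its treated libraries lay within a narrow range above all controls, and XPOT rose 1.28-fold (log2 fold change 0.35, SE 0.09, adjusted p = 0.00584).

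RANBP2 (ENSG00000153201, chromosome 2, 108719481 to 108785811, plus strand), the large nucleoporin of the cytoplasmic filaments to which RANGAP1 is tethered, had 215, 196 and 188 CPM in control and 251, 257 and 232 CPM after bleomycin and rose 1.23-fold (log2 fold change 0.30, SE 0.08, adjusted p = 0.0104). The genome holds near-identical partial copies of RANBP2, the RGPD genes, so its counts may be split among them. KPNA1 (ENSG00000114030, chromosome 3, 122421949 to 122514945, minus strand), importin alpha 5, had 72.1, 60.4 and 59.9 CPM in control and 75.8, 78.3 and 82.2 CPM after bleomycin and rose 1.23-fold (log2 fold change 0.30, SE 0.10, adjusted p = 0.0231). These are the same samples in which its paralog KPNA2 fell, and 16.3% of the exonic bases of KPNA1 are overlapped by AC083798.2 on the opposite strand. IPO13 (ENSG00000117408, chromosome 1, 43946939 to 43968022, plus strand), a carrier that works in both directions, had 57.1, 55.3 and 51.9 CPM in control and 66.5, 70.0 and 62.9 CPM after bleomycin and rose 1.21-fold (log2 fold change 0.28, SE 0.09, adjusted p = 0.0288). NUP43, a peripheral member of the outer ring, rose 1.19-fold (log2 fold change 0.25, SE 0.07, adjusted p = 0.0140).

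Most of these calls depended on single libraries. Among wild type libraries, KPNA1 and IPO13 no longer passed without control replicate 2 (adjusted p = 0.102 and 0.0724) or 3 (0.104 and 0.114) or bleomycin replicate 2 (0.0532 and 0.112). KPNA1 also lost its call without wild type bleomycin replicate 3 (0.0831) and IPO13 without replicate 1 (0.0733). NUP43 and RANBP2 lost theirs without wild type control replicate 3 (0.0595 and 0.0566), and NUP43 without wild type bleomycin replicate 2 (0.0648). RANBP17 and XPOT passed without any single library (highest adjusted p = 0.0453 and 0.0379).

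**Figure D1:**
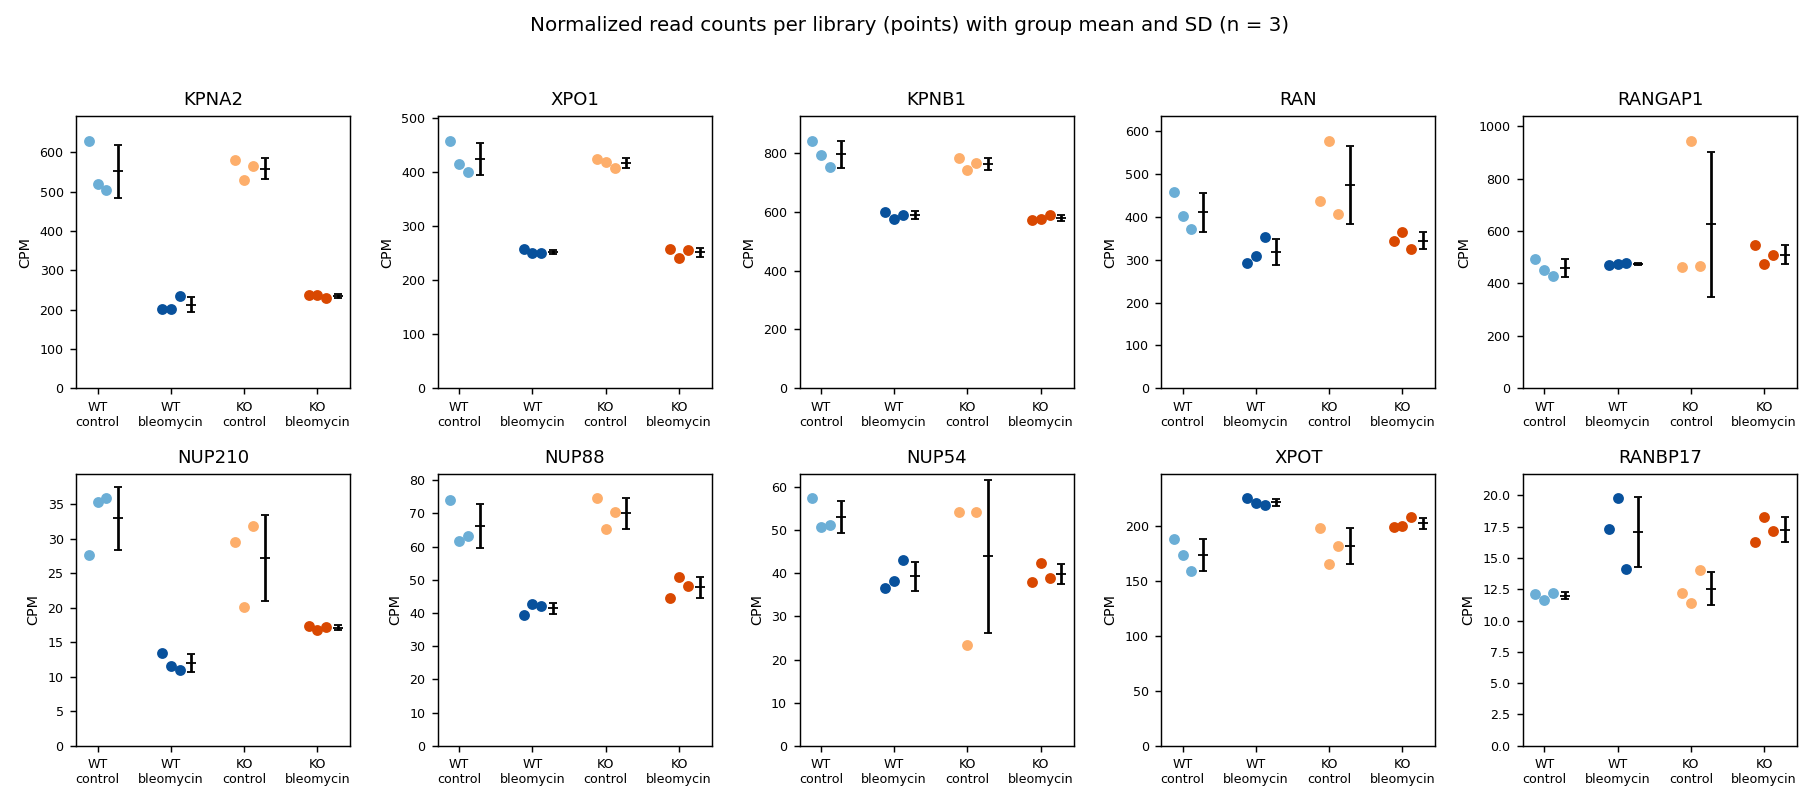
Normalized read count (CPM, vertical axis from 0) of 10 transport genes in each library (points) of the 4 groups, with the group mean and SD (n = 3) beside them. KPNA2, XPO1, KPNB1, NUP210 and NUP88 are lower after bleomycin in both genotypes. RANBP17 and XPOT lie higher, though XPOT was called in wild type cells only. Replicate 2 of the knockout control group stands apart for RANGAP1 and NUP54.

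Promoters are shown for the 3 members with the largest falls in wild type cells and the 2 with the largest rises, RANBP17 and XPOT, so that the upstream letters of genes that moved in opposite directions can be compared. They are the 250 bases before the RefSeq transcription start (GRCh38.p14), read 5′ to 3′ on the gene's strand. Capitals mark matches, on either strand, to 5 motifs: TTTGAA, the cell cycle genes homology region; CCAAT, the box bound by NF-Y; TTCCCGC for E2F; CATGCGC for NRF1; and CCGGAAG for ETS factors.
KPNA2: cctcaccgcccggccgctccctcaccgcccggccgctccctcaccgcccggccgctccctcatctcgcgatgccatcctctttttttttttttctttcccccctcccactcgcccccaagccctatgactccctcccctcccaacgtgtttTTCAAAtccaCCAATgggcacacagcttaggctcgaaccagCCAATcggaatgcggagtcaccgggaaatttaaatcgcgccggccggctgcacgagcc
XPO1: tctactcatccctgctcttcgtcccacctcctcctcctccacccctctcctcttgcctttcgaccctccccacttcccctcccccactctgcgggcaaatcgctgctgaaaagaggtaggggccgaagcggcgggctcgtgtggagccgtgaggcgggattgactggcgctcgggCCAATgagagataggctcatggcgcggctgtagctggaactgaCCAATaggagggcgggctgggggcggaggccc
NUP210: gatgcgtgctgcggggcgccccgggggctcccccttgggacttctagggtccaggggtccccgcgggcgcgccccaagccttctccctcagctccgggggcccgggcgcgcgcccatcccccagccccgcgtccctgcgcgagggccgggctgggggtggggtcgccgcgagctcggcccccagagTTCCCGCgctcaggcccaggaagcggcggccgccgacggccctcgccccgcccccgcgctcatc
RANBP17: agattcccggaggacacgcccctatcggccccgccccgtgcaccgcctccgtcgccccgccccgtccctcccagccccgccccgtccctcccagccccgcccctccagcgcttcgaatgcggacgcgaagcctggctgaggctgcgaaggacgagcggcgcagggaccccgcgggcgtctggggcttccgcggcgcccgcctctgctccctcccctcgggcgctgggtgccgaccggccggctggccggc
XPOT: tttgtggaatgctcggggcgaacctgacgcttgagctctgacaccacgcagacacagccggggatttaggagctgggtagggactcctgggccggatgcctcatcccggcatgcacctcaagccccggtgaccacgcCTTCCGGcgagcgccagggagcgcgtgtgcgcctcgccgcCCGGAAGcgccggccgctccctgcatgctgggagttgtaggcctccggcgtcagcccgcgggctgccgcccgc
The KPNA2 stretch lies at chr17:68035485-68035734 (plus strand) and holds 2 CCAAT boxes, which begin 89 and 58 bases before the start, and TTTGAA on the opposite strand. The XPO1 stretch, at chr2:61538357-61538606 (minus strand), also holds 2 CCAAT boxes, 75 and 32 bases before the start. The NUP210 stretch, at chr3:13420323-13420572 (minus strand), is 80.8% G or C and holds an E2F match 64 bases before the start. The XPOT stretch, at chr12:64404142-64404391 (plus strand), holds 2 ETS matches, 113 and 73 bases before the start, and no CCAAT box. The RANBP17 stretch, at chr5:170861768-170862017 (plus strand), holds no match to the 5 motifs. GENCODE places the starts of KPNA2, XPO1, RANBP17 and XPOT further upstream, so that 216, 250, 148 and 42 of the printed bases lie inside the GENCODE genes, and 0 for NUP210.

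RefSeq promoters of 300 bases (250 before and 50 after the start) matched 47 of the 54 members by symbol, and 27305 genes in all. CCAAT occurred in 21 of the 47 member promoters, or 44.7%, against 35.7% of all promoters. ETS matches occurred in 13 (27.7% against 10.7%), E2F matches in 10 (21.3% against 6.56%), TTTGAA in 9 (19.1% against 15.4%) and the NRF1 match in 7 (14.9% against 4.67%). Member promoters had a median G and C content of 63.3% against 58.3%, which bears on matches to G and C rich letters. Among members that fell in wild type cells 10 of 23 promoters held CCAAT, among those not called 10 of 17 and among those that rose 0 of 5. E2F matches occurred in 5 of 23, 5 of 17 and 0 of 5, and ETS matches in 5 of 23, 6 of 17 and 1 of 5. TTTGAA occurred in 5 of 23, 4 of 17 and 0 of 5, and the NRF1 match in 3 of 23, 4 of 17 and 0 of 5. These are counts of letters in a window and not of bound sites.

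By role, falls were spread over the pore and over both directions of transport. Over all genes 43.5% were called in wild type and 43.2% in knockout cells, 19.6% and 20.7% lower. The roles hold few genes each, so counts by role are descriptive only. In the outer ring scaffold, the Y complex, NUP160, NUP85 and NUP133 fell in wild type cells, NUP43 rose, and NUP37 (-0.29) and NUP107 (-0.23) did not pass. NUP160 had a log2 fold change of -0.60 (SE 0.07) in wild type and -0.61 (SE 0.08) in knockout cells. In knockout cells NUP107 fell 1.43-fold, beside NUP160, NUP85 and NUP133, so 4 of 6 fell. Without knockout control replicate 2 the fall of NUP107 was 1.26-fold (log2 fold change -0.34, adjusted p = 0.000410). In wild type cells NUP133 no longer passed when control replicate 1 was left out (adjusted p = 0.0847) or wild type bleomycin replicate 1, 2 or 3 (0.0593, 0.0680 and 0.0587).

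Of the 5 inner ring scaffolds, NUP188, NUP93 and NUP205 fell in wild type cells and in knockout cells, and NUP35 and NUP155 did not pass in either. NUP93, the partner of NUP188 and NUP205, fell 1.32-fold in wild type and 1.27-fold in knockout cells. NUP205 did not pass in wild type cells when their control replicate 1 was left out (adjusted p = 0.0526). In the central channel, whose flexible repeats form the barrier, NUP98 fell 1.52-fold and NUP62 1.49-fold in wild type cells, and 1.43-fold and 1.29-fold in knockout cells. NUP54 (-0.43, SE 0.23) and NUP58 (0.11, SE 0.11), which form a complex with NUP62, did not pass in wild type cells. Exons of other genes, ATF5 among them, cover 11.96% of NUP62's exonic bases on the same strand and 10.4% on the other.

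The nuclear basket proteins NUP153 and NUP50 fell in both genotypes, by 1.31-fold and 1.21-fold in wild type and 1.29-fold and 1.31-fold in knockout cells. The call of NUP153 in knockout cells was lost without knockout control replicate 3 (adjusted p = 0.0539). At the cytoplasmic face NUP88 fell in both, while NUP214 (-0.17, SE 0.24, in wild type and 0.18, SE 0.25, in knockout cells) did not pass in either. Without knockout control replicate 2 the NUP214 value in knockout cells was -0.14, which did not pass either. Of the Ran cycle genes, RAN and RANBP3, a cofactor of XPO1, fell in both genotypes, and RANBP1, which helps RANGAP1 act on Ran, fell in knockout cells. RANGAP1 itself did not pass (0.05, SE 0.22, and -0.29, SE 0.22). RANBP9 and RANBP10, which bind Ran by name but are scaffolds of a ubiquitin ligase, passed in neither genotype.

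**Figure D2:**
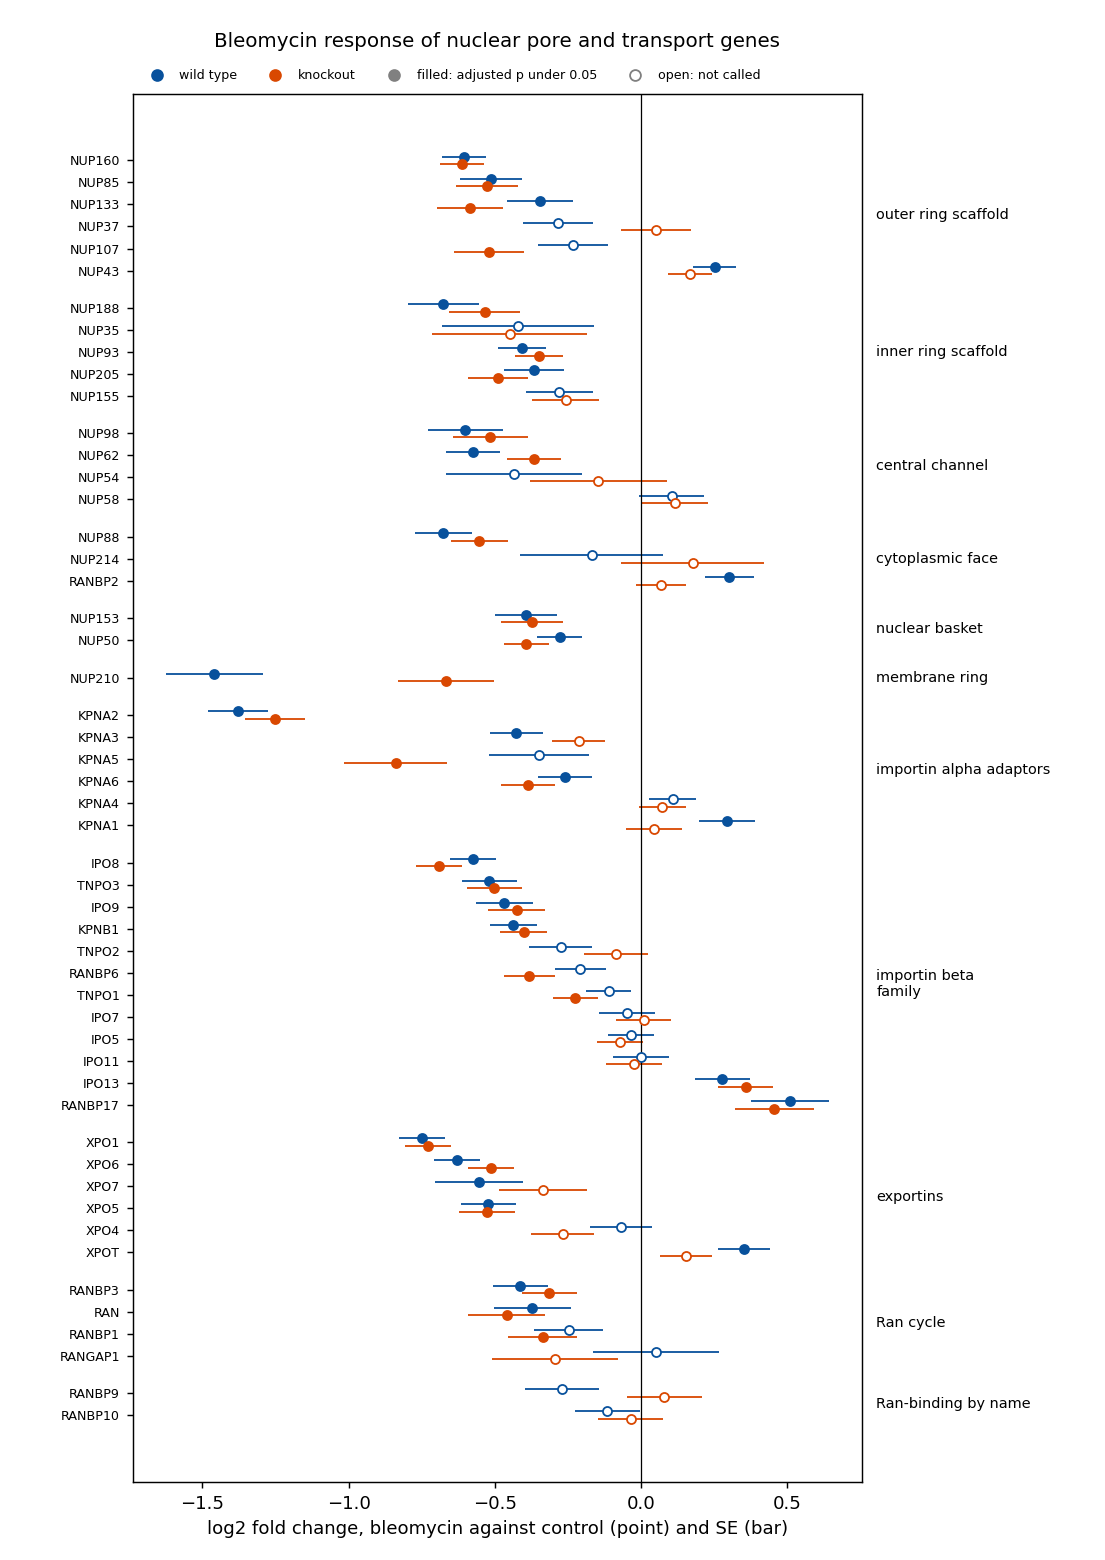
Log2 fold change of bleomycin against control (horizontal axis, points, with SE as bars) for the 51 tested members, grouped by role, in wild type (blue) and knockout cells (orange), filled where the adjusted p is under 0.05. Most filled points lie left of 0, with NUP210 and KPNA2 farthest out, and RANBP17 and IPO13 lie right of 0 in both genotypes.

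The importin alpha adaptors did not move as a family. Of the 6 tested, 66.7% were called in wild type and 50% in knockout cells, against 43.5% and 43.2% of all genes. KPNA2 and KPNA6 fell in both genotypes, KPNA3 fell in wild type cells (-0.43, SE 0.09), KPNA5 fell in knockout cells, KPNA1 rose in wild type cells, and KPNA4 passed in neither (0.11 and 0.07). The call of KPNA6 in wild type cells was lost without any 1 of the 6 wild type libraries and without knockout bleomycin replicate 3, with adjusted p-values of 0.0509 to 0.126. As a share of the summed FPKM of the 7 adaptors, KPNA2 made up 72.9% to 75.6% in wild type control libraries and 53.6% to 57.2% after bleomycin. In knockout libraries its share was 74.5% to 75.5% in control and 57.4% to 59.2% after bleomycin. KPNA1 made up 3.18% to 3.22% in wild type control against 7.47% to 7.77% in wild type bleomycin libraries, and 3.35% to 4.04% against 6.47% to 7.35% in knockout libraries. KPNA4 made up 5.23% to 5.79% against 10.9% to 11.9% in wild type and 5.25% to 5.43% against 10.1% to 10.8% in knockout libraries. The shares rest on the same counts as the fold changes and were not tested, and KPNA2 remained the most abundant adaptor in each library.

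The summed FPKM of the 7 adaptors lay between 219.7 and 265 in wild type control and between 118 and 129 in wild type bleomycin libraries. In knockout libraries it lay between 222 and 245 in control and between 125 and 128 after bleomycin, so the treated and control libraries did not overlap in either genotype. The mean sum went from 236 to 122 FPKM in wild type and from 236 to 126 FPKM in knockout cells. KPNA2 alone went from 175 to 66.9 FPKM and from 177 to 73.8 FPKM, so most of the drop in the sum was that of KPNA2. KPNA5 (ENSG00000196911, chromosome 6, 116681187 to 116741866, plus strand), the adaptor at the lowest tested level, had 9.97, 12.7 and 9.29 CPM in knockout control and 7.17, 4.52 and 6.198 CPM in knockout bleomycin libraries and fell 1.79-fold there (log2 fold change -0.84, SE 0.18, adjusted p = 0.00196). In wild type cells it had 10.7, 10.4 and 9.35 CPM in control against 7.59, 8.66 and 7.64 CPM and did not pass (log2 fold change -0.35, SE 0.17, adjusted p = 0.122), although without knockout control replicate 2 it did (-0.35, adjusted p = 0.0427).

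The exportins also changed unequally, with 83.3% of 6 called in wild type and 50% in knockout cells, against 43.5% and 43.2% of all genes. XPO1, XPO6 and XPO5 fell in both genotypes, XPO7 fell in wild type cells, XPOT rose in wild type cells, and XPO4 passed in neither. XPO6, which exports actin with profilin, fell 1.55-fold in wild type and 1.43-fold in knockout cells, and XPO5, which exports precursors of microRNA, fell 1.44-fold and 1.44-fold. XPOT, the tRNA carrier, made up 15.5% to 17.1% of the summed exportin FPKM in wild type control and 27.3% to 28.3% in wild type bleomycin libraries, and 16.9% to 18.4% and 24.8% to 26.4% in knockout libraries. The sum itself was lower after bleomycin, with a mean of 142 against 107 FPKM in wild type cells. In knockout cells, where XPOT was not called, the mean sum was 140 against 106 FPKM, so its share also reflects the smaller sum. XPO1 made up 24.6% to 26.2% in control against 19.6% to 20.4% after bleomycin in wild type, and 24.3% to 26.9% against 19.6% to 20.2% in knockout libraries.

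**Figure D3:**
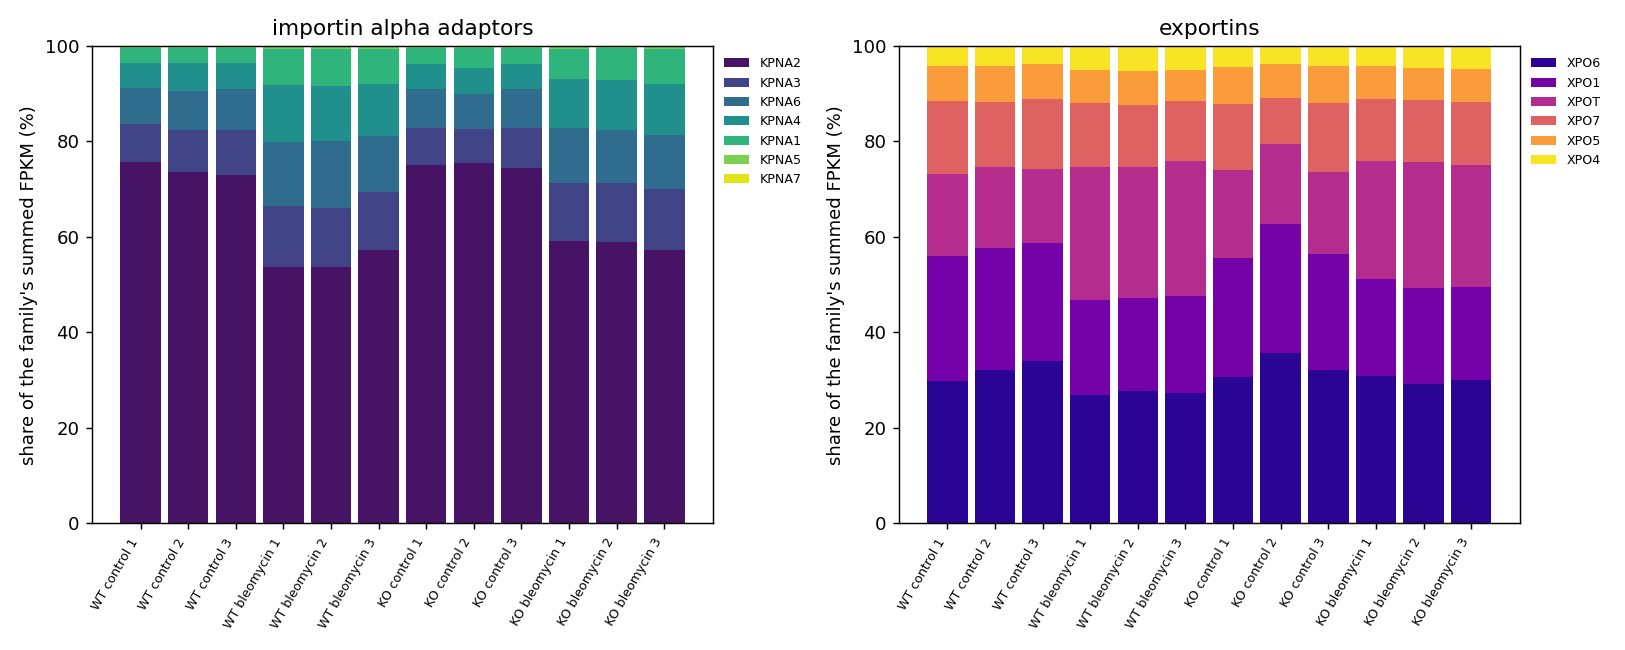
Share of each gene (percent of the family's summed FPKM, stacked bars) in each of the 12 libraries, for the importin alpha adaptors (left) and the exportins (right). The KPNA2 segment is smaller and the XPOT segment larger in every bleomycin library than in every control library.

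Among the 12 tested importin beta relatives, 4 fell and 2 rose in wild type cells, and 6 fell and 2 rose in knockout cells, or 50% and 66.7% called against 43.5% and 43.2% of all genes. IPO8 (ENSG00000133704, chromosome 12, 30628988 to 30695986, minus strand), a carrier whose cargo includes Argonaute proteins, had 94.6, 86.2 and 90.0 CPM in knockout control and 57.1, 53.4 and 57.2 CPM in knockout bleomycin libraries. It fell 1.61-fold in knockout (log2 fold change -0.69, SE 0.08, adjusted p = 1.54e-05) and 1.49-fold in wild type cells (log2 fold change -0.57, SE 0.08, adjusted p = 6.17e-05). TNPO3, the importer of SR splicing factors, fell 1.43-fold and 1.42-fold, and IPO9 1.38-fold and 1.34-fold, in wild type and knockout cells. IPO5 and IPO7, importers of ribosomal proteins, had log2 fold changes of -0.03 (95% interval -0.21 to 0.15) and -0.05 (-0.27 to 0.17) in wild type cells and -0.07 and 0.01 in knockout cells, and passed in neither. TNPO1 and RANBP6 fell in knockout cells (-0.22 and -0.38). The call of TNPO1 there was lost without wild type bleomycin replicate 2, knockout control replicate 1, or knockout bleomycin replicate 1 or 2 (adjusted p = 0.0614, 0.0877, 0.102 and 0.0947).

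The same treatment was compared within the knockout libraries, which carry less SLC25A4 transcript. Of 51 members 28 fell and 2 rose, with a median of -0.35 against 0.00 over all genes. Over all genes 43.2% passed, 20.7% lower and 22.5% higher, so 54.9% of members against 20.7% of genes were lower and 3.92% against 22.5% higher. Of those that fell, 6 did so by at least 1.5-fold and 1, KPNA2, by at least 2-fold, where 11.8% and 5.13% of all genes did so. The share of members at 1.5-fold was also 11.8%, and no member rose that far, against 17.3% of all genes. In 29 members every treated library lay below every control and in 4 above, against 23.9% and 27.4% of all genes (51.3% in either direction). KPNA2 had 581, 529 and 566 CPM in knockout control and 236, 237.9 and 229 CPM in knockout bleomycin libraries and fell 2.38-fold (log2 fold change -1.25, SE 0.10, adjusted p = 6.34e-07).

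XPO1 had 425, 419.8 and 407 CPM in knockout control and 257, 242 and 256 CPM in knockout bleomycin libraries and fell 1.66-fold (log2 fold change -0.73, SE 0.08, adjusted p = 8.72e-06). KPNB1 had 783, 742 and 769 CPM in control against 571, 575 and 590.1 CPM after bleomycin and fell 1.32-fold (log2 fold change -0.40, SE 0.08, adjusted p = 0.00123). Neither gene's groups overlapped. NUP210 had 29.6, 20.1 and 31.8 CPM in control, with replicate 2 the low value, and 17.4, 16.7 and 17.2 CPM after bleomycin, and fell 1.59-fold (log2 fold change -0.67, SE 0.16, adjusted p = 0.00512), or -0.85 (adjusted p = 3.10e-06) without control replicate 2.

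RAN had 437, 578 and 407 CPM in knockout control, with replicate 2 the high value, and 345, 365 and 324 CPM in knockout bleomycin. It fell 1.38-fold (log2 fold change -0.46, SE 0.13, adjusted p = 0.0134), a call that was lost without knockout bleomycin replicate 3 (adjusted p = 0.0570). Without knockout control replicate 2 the fall was 1.23-fold (log2 fold change -0.30, adjusted p = 0.0137). RANBP17 had 12.2, 11.4 and 14.05 CPM in control against 16.3, 18.3 and 17.2 CPM after bleomycin and rose 1.37-fold (log2 fold change 0.46, SE 0.13, adjusted p = 0.0141), lost without knockout bleomycin replicate 2 (0.0560). IPO13 had 51.7, 45.7 and 57.3 CPM in control against 65.5, 67.3 and 65.7 CPM after bleomycin and rose 1.28-fold (log2 fold change 0.36, SE 0.09, adjusted p = 0.00802). The call of RANBP3 was lost without knockout control replicate 1 (0.0635) or 3 (0.0658) or knockout bleomycin replicate 3 (0.0862), and that of RANBP1 without wild type bleomycin replicate 2 (0.0524), knockout control replicate 2 (0.0618) or knockout bleomycin replicate 1 (0.112) or 3 (0.110).

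Between genotypes no member passed edgeR's test, in control medium, in bleomycin or for the interaction (the knockout response to bleomycin less the wild type response). Over all genes 0.168% passed in control medium, 0.0479% in bleomycin and 0% for the interaction. At an unadjusted p under 0.05 there were 2 members in control medium (RANBP6 and RANBP9), 2 in bleomycin (KPNA5 and NUP210) and 1 for the interaction (NUP210). DESeq2 also called 0 members in each, with 4, 2 and 1 at an unadjusted p under 0.05. The share of all genes at that unadjusted cutoff was not computed, so these counts are not read as a genotype difference. The member medians were 0.00, 0.00 and 0.01. For XPO1 the knockout minus wild type difference was -0.03 in control medium (95% interval -0.21 to 0.15) and -0.01 in bleomycin (-0.19 to 0.18), and for KPNB1 -0.06 (-0.24 to 0.12) and -0.02 (-0.21 to 0.16). For KPNA2 the intervals were -0.21 to 0.25 and -0.09 to 0.38.

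NUP210 had the largest genotype difference of any member in bleomycin and for the interaction. In bleomycin it was 1.43-fold higher in knockout than in wild type cells (17.4, 16.7 and 17.2 against 13.4, 11.5 and 11.004 CPM), without overlap between the groups (8.99% of all genes lay higher in that way and 9.6% lower, 18.6% in all) but without passing (log2 fold change 0.51, SE 0.17, adjusted p = 0.498). It passed when knockout control replicate 2 was left out of the fit (adjusted p = 0.0212). In that fit 294 of 17204 genes passed in this comparison, against 8 of 16702 in the main fit. The interaction was 0.79 (SE 0.23, 95% interval 0.26 to 1.33, unadjusted p = 0.00450, adjusted p = 0.899), and 0.62 (adjusted p = 0.225) without that library. In control medium NUP210 had a difference of -0.28 (SE 0.16), or -0.10 without knockout control replicate 2. KPNA5 lay lower in every knockout than in every wild type bleomycin library, by 1.34-fold, and did not pass (log2 fold change -0.42, SE 0.18, adjusted p = 0.681).

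Of the 51 members, 25 passed in both genotypes (23 lower, 2 higher; over all genes 15.3% were lower and 18.8% higher in both), 6 in wild type cells and not in knockout cells, 5 in knockout cells and not in wild type cells, and 15 in neither. The interaction passed for none of these, so no difference in response was shown for any of them. Across the 51 members the 2 responses had a Pearson r of 0.83 and a Spearman rho of 0.81, against 0.92 and 0.85 across all genes tested. These describe genes measured in the same libraries and are not replicates.

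**Figure D4:**
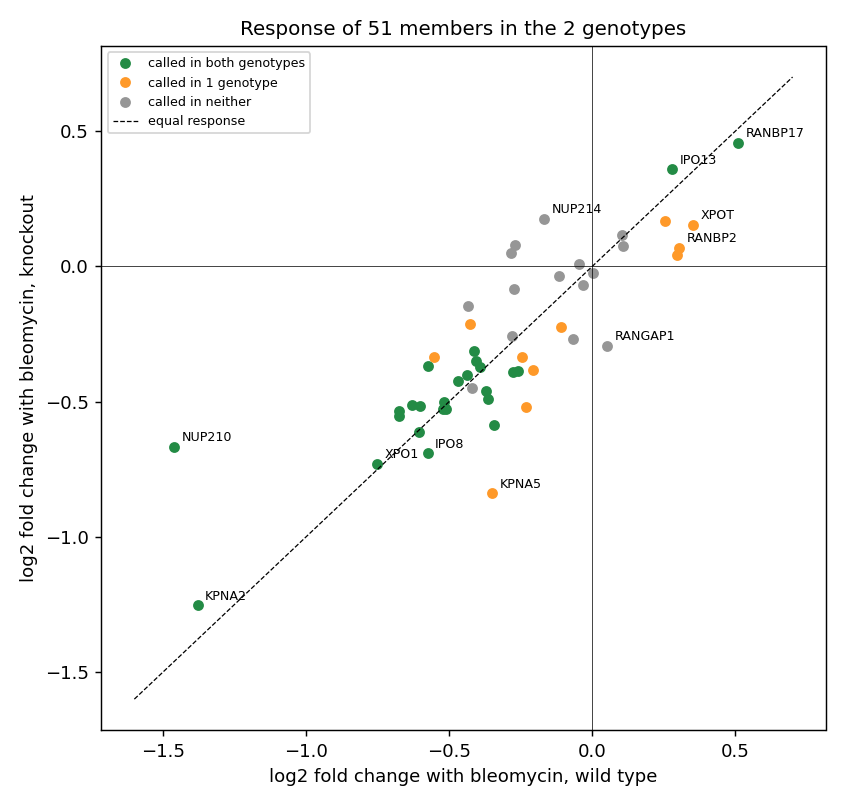
Log2 fold change with bleomycin in knockout cells (vertical axis) against wild type cells (horizontal axis) for the 51 tested members, coloured by the genotypes in which they passed. Points follow the dashed line of equal response, with NUP210 above it and KPNA5 below it.

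Knockout control replicate 2 differed from its 2 fellow libraries in a number of members, as it did in many other genes. RANGAP1 stood at 945 CPM there, against 463 and 466 CPM in replicates 1 and 3 and at most 548 CPM in any other library. NUP35, NUP214 and NUP54 were 2.46-fold, 2.40-fold and 2.31-fold lower than the mean of replicates 1 and 3, and XPO7 and NUP210 1.60-fold and 1.53-fold lower. In all, 10 of 51 members (19.6%) lay above all other 11 libraries in this library and 13 (25.5%) below them, against 26% and 24% of all genes tested. Of 6 outer ring genes, 4 lay above all other libraries (NUP107 1.42-fold above the mean of replicates 1 and 3) and 1, NUP43, below. NUP160, among those 4, was above by little, at 88.09 CPM against at most 88.07 CPM elsewhere. Of 4 Ran cycle genes, 3 lay above (RAN 1.37-fold) and RANBP3 was 1.24-fold lower. Other roles went the other way. Among 12 importin beta relatives 5 lay below and 1 above. In the central channel 2 of 4 lay below, as did 2 of 2 ubiquitin ligase scaffolds, and 0 lay above in either. Each remaining role had at most 1 above and at most 1 below. KPNB1, XPO1 and TNPO1 were within 1.05-fold of the mean of replicates 1 and 3. How this library came to differ was not tested.

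Without this library 41 members passed in wild type cells, where 56.6% of all genes then passed, and 36 in knockout cells, against 48.4%. Between genotypes 0 members passed in control medium, 1 in bleomycin and 0 for the interaction. Over all 17204 genes then tested, 175, 294 and 9 passed, in the same order. In knockout cells NUP54 fell (-0.45, adjusted p = 0.000269), as did NUP35 (-0.77, 7.50e-05), XPO7 (-0.53, 1.81e-05), XPO4 (-0.37, 0.00135), NUP155 (-0.39, 0.000344), KPNA3 (-0.30, 0.00163) and TNPO2 (-0.21, 0.0329). With the library their log2 fold changes, in the same order, were -0.15, -0.45, -0.34, -0.27, -0.26, -0.21 and -0.08. RANGAP1 went from -0.29 to 0.13 in knockout cells and passed in neither fit. In wild type cells, where the library enters through the shared estimate of the spread, NUP54 (8.24e-05), NUP35 (0.00470), NUP155 (0.00192), NUP107 (0.00293), NUP37 (0.0163), KPNA5 (0.0427), TNPO2 (0.00180), RANBP1 (0.0126), RANBP6 (0.0202) and RANBP9 (0.00301) then fell, with these adjusted p-values. NUP37 also passed without wild type control replicate 2 (adjusted p = 0.0457) and TNPO2 without knockout control replicate 3 (0.0498).

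Of 29 other pore and transport genes with names outside the rule, 6 fell and 2 rose in each genotype. That is 20.7% lower, near the 19.6% and 20.7% over all genes in wild type and knockout cells, and 27.6% called, against 43.5% and 43.2% over all genes. The list had medians of -0.05 in wild type and -0.10 in knockout cells, against 0.02 and 0.00 over all genes. NDC1, a membrane nucleoporin that anchors the pore, fell in wild type (-0.90, adjusted p = 1.17e-06) and knockout cells (-0.77, 6.45e-06). RCC1, the exchange factor that loads Ran with GTP, fell in both (-0.86, 5.26e-06, and -0.84, 8.05e-06), as did SEH1L of the outer ring (-0.74, 1.97e-05, and -0.85, 7.18e-06) and PCID2, which takes part in messenger RNA export (-0.62, 0.000101, and -0.71, 3.58e-05). RAE1, an mRNA export and spindle factor, rose in both (0.39, 0.00421, and 0.36, 0.00775). GLE1, which activates mRNA release at the cytoplasmic face, rose in wild type cells (0.29, 0.0229), and SEC13, shared by the outer ring and vesicle coats, rose in knockout cells (0.46, 0.00379). CSE1L, the exportin that returns importin alpha to the cytoplasm, had -0.13 and -0.13 and passed in neither genotype.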

How the data were processed

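Poly(A) RNA from 12 Beas-2b libraries was measured. The submitters' processing notes name HISAT2 2.0.5, an aligner, and featureCounts 1.5.0-p3, a read counter. Build, annotation and use of strand are not given in the sources used here. The authors deposited raw read counts per gene and FPKM values, which divide counts by gene length and library size. Length scaling makes the FPKM values comparable between genes, and they were used only for levels, shares and alternatives.

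Groups were taken from the labels. Counts of all genes were fitted with edgeR 4.0.16 in R 4.3.3 (quasi-likelihood test, low-count filter by group, TMM scaling, 12 libraries, 4 group means, 5 contrasts, 8 residual degrees of freedom), with Benjamini-Hochberg adjustment over 16702 genes and a threshold of 0.05. Every adjusted p in the text is edgeR's unless another tool is named. CPM used TMM-scaled library sizes, and 3 counts correspond to 0.137 to 0.190 CPM. SE is the size of the log2 fold change over the square root of F, and intervals use 95% t limits on 8 degrees of freedom. The test adds degrees of freedom borrowed across genes, so an interval can be wider than its p-value implies. Alternatives used DESeq2 1.42.0 and limma 3.58.1 on log2(FPKM + 1). Tested on simulated counts of 16188 genes for the wild type comparison, the fit recovered 58 of 100 genes changed 1.5-fold and 84 of 100 changed 2-fold, with 2 false calls. The simulation gave every gene the same spread, and no library stood apart as knockout control replicate 2 does. These figures therefore need not hold for the real libraries. Gene positions, taken from the deposited table, were checked and were the same in GENCODE 29 (GRCh38) for 54 of 54 members. Promoters came from RefSeq.

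Members, lists and tests were chosen with earlier results of these data known. Values per library are given for RAN, KPNB1, XPO1 and KPNA2 and, in each bleomycin comparison, for up to 5 rising and 5 falling called members with the largest fold change. RANGAP1 was added for its value in 1 library. P-values weigh each difference against the spread between libraries within groups, estimated over the 4 groups together.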

Additional observations from a re-analysis of the deposited data

How the results depend on the processing

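Requiring at least 1.5-fold left 8 members called with bleomycin in wild type and 6 in knockout cells, all lower (15.7% and 11.8% of members, against 11.4% and 11.8% of all genes lower and 18.5% and 17.3% higher). In bleomycin 1 member, NUP210, passed between genotypes when only those 2 groups were fitted (adjusted p = 0.0227), and also without knockout control replicate 2. Leaving out each library in turn gave 25 to 41 members called in wild type and 27 to 36 in knockout cells, 0 to 0 between genotypes in control medium, 0 to 1 in bleomycin and 0 to 0 for the interaction. Calls over all genes moved too. At the lowest member counts 6076 of 17136 genes passed in wild type and 6081 of 17191 in knockout cells, and at the highest 9743 and 8319 of 17204. The fits with other scalings, filters, tools or only the groups compared gave 25 to 41 members in wild type and 24 to 31 in knockout cells. At these ends 6360 of 38341 genes (limma without a filter) and 8986 of 16033 (only 2 groups) passed in wild type. In knockout cells 5009 of 15703 (only 2 groups) and 7587 of 38341 (without the count filter) did. Fitting only the 2 groups compared ended the calls of NUP153, NUP62, RAN, RANBP1, RANBP3 and TNPO1 in knockout cells (adjusted p = 0.0534 to 0.109), and limma without a filter those of RANBP17, IPO13, KPNA1, KPNA6, NUP133 and RAN in wild type (0.0596 to 0.108) and RANBP17, RAN and RANBP1 in knockout cells (0.0607 to 0.114). Without the count filter KPNA1 (0.103), NUP43 (0.196), RANBP2 (0.0618), IPO13 (0.150) and KPNA6 (0.0660) lost their calls in wild type and TNPO1 (0.155) in knockout cells. Calls were also gained there, all lower: NUP155 (0.0464), NUP35 (0.0342), NUP54 (0.0113) and TNPO2 (0.0494) in wild type. In knockout cells NUP35 (0.0316) and XPO7 (0.0207) were gained. DESeq2 called TNPO2 lower in wild type (adjusted p = 0.0485). With only 2 groups fitted 35 members fell in wild type, against 25 in the main fit. No member that was called changed direction in any alternative. Over all genes, calls between genotypes in control medium numbered 28, against 202 with DESeq2, 321 without the filter, 14 with limma, 0 with only 2 groups and 175 without knockout control replicate 2. In bleomycin they numbered 8, against 75, 81, 28, 312 and 294. For the interaction they numbered 0, against 4 with DESeq2, 13 without the filter and 9 without that library. With the replicate number as a block, 29, 28, 0, 0 and 0 members passed in the 5 comparisons, and 11 and 4 genes in all between genotypes in control medium and in bleomycin. The block ended the calls of RAN (0.0507) and IPO13 (0.0522) in wild type and of RANBP1 (0.0559) and TNPO1 (0.0573) in knockout cells. Same-numbered libraries did not deviate together (2 of 18 correlations over 0.1), so the numbers were not taken as pairs. The 2 scalings chosen after seeing the data, by library totals and without mitochondrial genes, are among these alternatives. IPO4, KPNA7 and NUP210L, with 1 to 14 counts per group, were fitted only without the filter, with limma without a filter and with DESeq2, and of these limma called KPNA7 higher in knockout bleomycin (adjusted p = 0.0321). The cause of these dependences was not tested.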
